A study of Homo sapiens with 6 samples.

Results

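The genes described here are 53 genes of cell-matrix adhesion, chosen by their symbols from the 61155 symbols of the count table: 18 integrin α subunits, 8 integrin β subunits, 5 talins and kindlins, 5 genes of the ILK, PINCH and parvin scaffold, 10 linkers to actin, and 7 kinases and adaptors of focal adhesions. They were measured by RNA sequencing of the human embryonic stem cell (hESC) line H7, in 3 libraries of wild-type (WT) cells and 3 libraries of S6K1-/- cells made from them with CRISPR/Cas9 aimed at RPS6KB1, the gene of the ribosomal protein S6 kinase S6K1. Both groups were grown without feeder cells on Matrigel, a coating rich in laminin in TeSR-E8 medium. The labels give these libraries a time of week 5 and call the genotype a knockdown, whereas the methods describe undifferentiated cells and a knockout. All S6K1-/- libraries come from 1 clone, so that genotype and clone cannot be told apart.

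Integrins are αβ heterodimers that span the membrane and bind matrix proteins such as laminin, fibronectin and collagen. Talins and kindlins bind the β tail and switch the receptor on, the ILK, PINCH and parvin scaffold and proteins such as vinculin, α-actinin and filamin join it to actin, and focal adhesion kinase, SRC, paxillin, p130Cas and CRK proteins carry its signals. In human pluripotent stem cells, α6β1 integrin is known as the main laminin receptor and αVβ5 as a vitronectin receptor.

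Library totals ran from 21896698 to 24473013 counts, of which the 53 genes took from 0.559% to 0.605%. The libraries are numbered as replicates, and whether they are separate cultures is not stated, so p-values measure the spread between these libraries, which may be technical. Levels are given as CPM, the counts of a gene scaled to a fixed library size. RPS6KB1 was at 34.1, 32.2 and 33.5 CPM in WT and at 19.8, 19.4 and 20.1 CPM in S6K1-/- libraries (log2 fold change -0.75, adjusted p = 2.52e-07). Every adjusted p below is from the quasi-likelihood test of edgeR over all genes tested, unless another test is named. The 9 markers of pluripotent stem cells were all detected, with a summed level of 7321 to 7489 CPM in WT and 6834 to 6922 CPM in S6K1-/- libraries. Of these, DNMT3B was lower at 0.001 (log2 fold change -0.35, adjusted p = 4.88e-05) and TDGF1 at 0.05 (-0.15, adjusted p = 0.0308).

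Of the 53 genes, 43 passed the filter on low counts. At the study's threshold of an adjusted p under 0.001, BCAR1 and PARVB were lower and TNS3 was higher in S6K1-/- hESCs, which is 6.98% of the genes tested, against 3.96% of all 19521 genes tested. With a looser threshold of 0.05, 10 were lower and 1 was higher, which is 25.6% against 13.8% of all genes. By direction, the background at 0.001 was 2.54% lower and 1.42% higher, and at 0.05 it was 8.31% lower and 5.47% higher. Of the 43 genes, 29 had a negative log2 fold change (67.4%, against 50.6% of all genes), and the median was -0.07 over the 43 and -0.00 over all genes. In 16 of the 43 genes the libraries of both groups did not overlap (37.2%, against 30.7% of all genes). S6K1-/- was below WT in 14 of them and above in 2, where the share over all genes was 16.7% below and 14% above. The remaining 10 genes are all integrins with few or no counts.

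**Figure D1:**
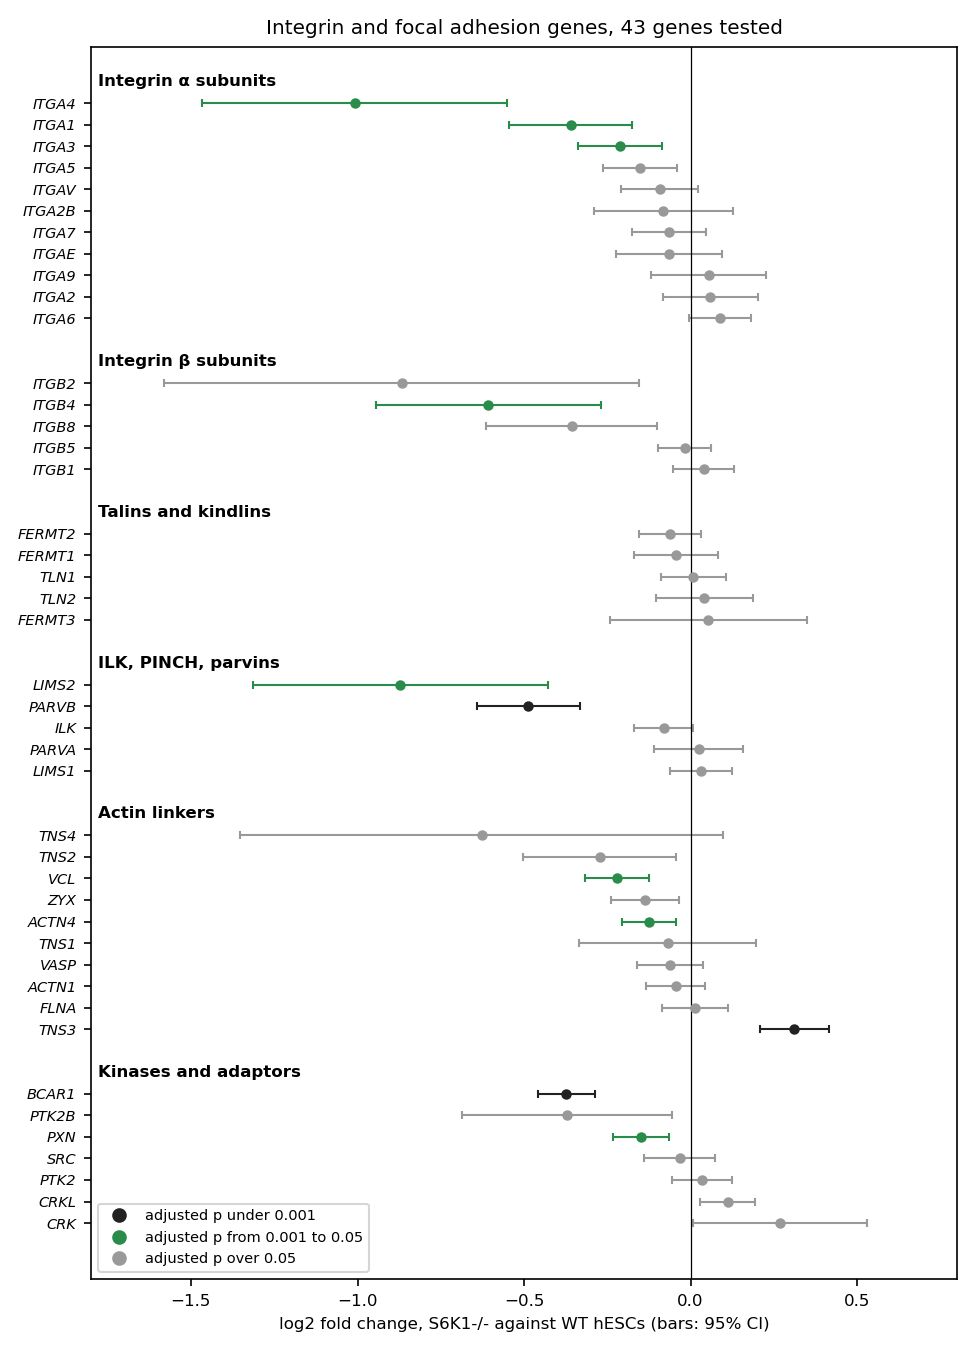
Log2 fold change of the 43 genes tested (x axis, S6K1-/- against WT hESCs, bars 95% confidence interval), grouped by role and ordered by fold change. BCAR1, PARVB and TNS3 passed an adjusted p of 0.001, 8 further genes passed 0.05, all of them lower, and the talins and kindlins lie near 0.

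The 3 genes past an adjusted p of 0.001 belong to different layers of the adhesion, an adaptor, a scaffold protein and an actin linker, namely BCAR1, PARVB and TNS3. The 250 bases before the start site, from RefSeq (GRCh38.p14), are shown for PARVB and TNS3 only. PARVB has 2 RefSeq starts and TNS3 has 3, and the start shown is that of the canonical transcript. Their GC content was 81.6% for PARVB and 76.8% for TNS3, beside a median of 63.6% over the 68 RefSeq windows found for the 53 genes and 58.0% over all 35116 windows. Neither holds a CArG box or the letters CATTCC or GGAATG, which were searched for on both strands.
PARVB (chr22:44024052-44024301, plus strand): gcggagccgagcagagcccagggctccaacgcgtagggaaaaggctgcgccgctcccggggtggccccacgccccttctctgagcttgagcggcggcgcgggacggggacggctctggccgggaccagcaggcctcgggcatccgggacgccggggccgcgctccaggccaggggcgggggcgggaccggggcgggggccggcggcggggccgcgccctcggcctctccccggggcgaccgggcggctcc
TNS3 (chr7:47582112-47582361, minus strand): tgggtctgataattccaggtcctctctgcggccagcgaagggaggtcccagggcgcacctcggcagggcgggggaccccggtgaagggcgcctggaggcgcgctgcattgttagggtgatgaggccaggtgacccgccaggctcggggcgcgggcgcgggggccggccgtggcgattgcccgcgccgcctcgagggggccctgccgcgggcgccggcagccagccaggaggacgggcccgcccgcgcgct

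BCAR1 encodes p130Cas, a docking protein that focal adhesion kinase and SRC phosphorylate and that then recruits CRK (GRCh38 chr16:75228181-75268053, minus strand). It had 73.7, 75.1 and 73.2 CPM in WT and 57.0, 57.6 and 56.8 CPM in S6K1-/- hESCs. All S6K1-/- libraries lay below all WT libraries. Its level fell from 74.0 ± 0.992 to 57.1 ± 0.419 CPM (SD, n = 3). The log2 fold change was -0.37 with a standard error of 0.040 (adjusted p = 1.15e-05), and this call held in all 11 alternatives tried.

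PARVB, β-parvin, binds ILK and actin in the ILK, PINCH and parvin scaffold (chr22:43999211-44172939, plus strand). It was at 14.2, 13.6 and 13.4 CPM in WT and at 9.58, 10.0 and 9.79 CPM in S6K1-/- hESCs, with no overlap between the groups. From 13.7 ± 0.390 CPM it fell to 9.80 ± 0.221 CPM (SD, n = 3). The log2 fold change was -0.49 with a standard error of 0.073 (adjusted p = 2.84e-04). The call at 0.001 was lost in 5 of 6 fits that leave out 1 library, those without WT replicate 1, WT replicate 3 or any of the S6K1-/- libraries, with an adjusted p from 6.47e-04 to 0.00264 over the 6 fits. DESeq2's Wald test gave 0.00103 and the edgeR test with the replicate number as a block 0.00111. The log2 fold change lay between -0.50 and -0.45 over all 11 alternatives.

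TNS3, tensin 3, binds β integrin tails and actin at adhesions (chr7:47275154-47582558, minus strand). Its WT libraries had 63.3, 56.3 and 60.8 CPM and its S6K1-/- libraries 75.7, 75.4 and 72.6 CPM, so that every S6K1-/- library was above every WT library. It rose from 60.1 ± 3.55 to 74.6 ± 1.72 CPM (SD, n = 3). The log2 fold change was 0.31 with a standard error of 0.048 (adjusted p = 3.73e-04). Leaving out WT replicate 3 or any of the S6K1-/- libraries ended the call at 0.001, with an adjusted p from 3.69e-04 to 0.00312 over the 6 fits. The log2 fold change lay between 0.27 and 0.36 over all 11 alternatives, and DESeq2's Wald test gave an adjusted p of 6.85e-06.

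**Figure D2:**
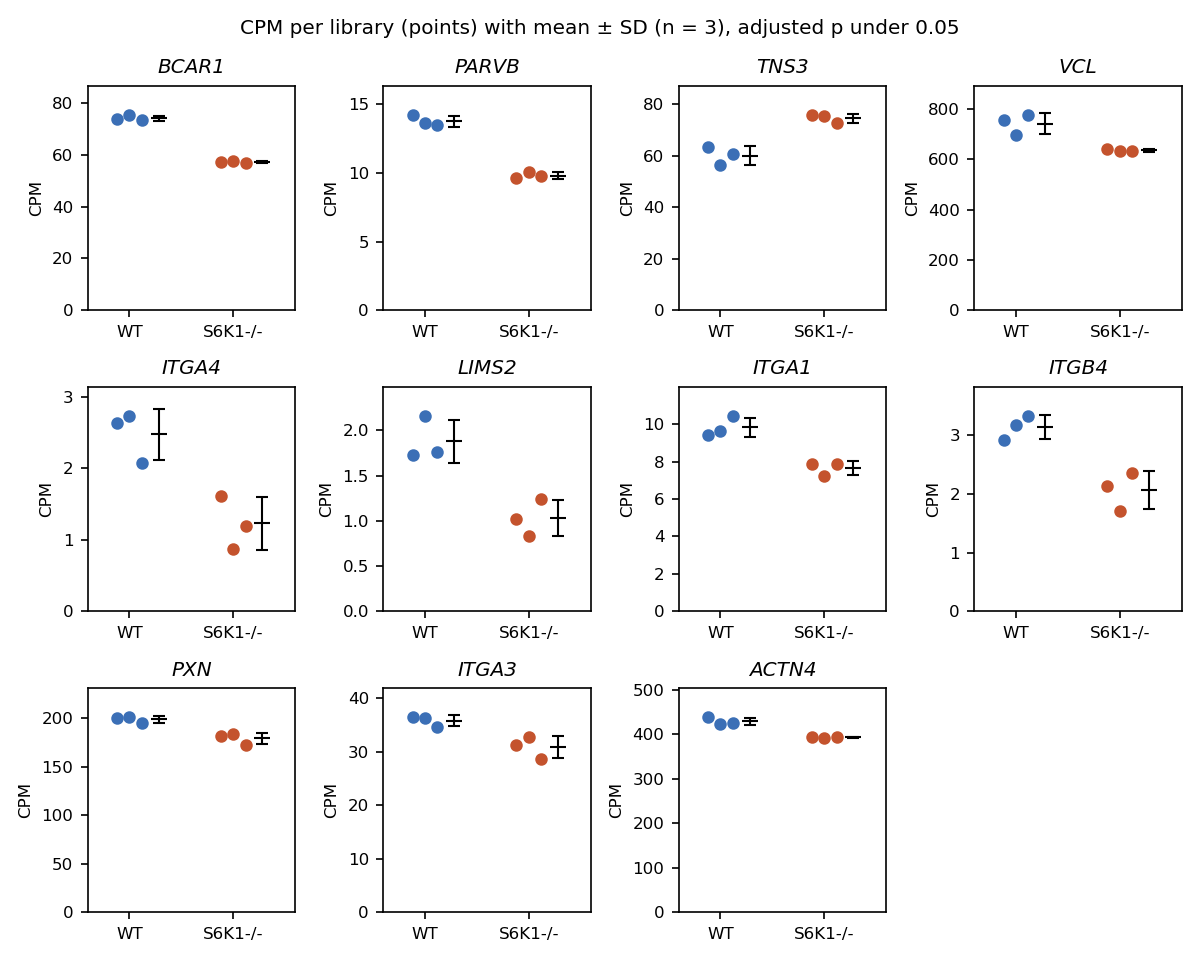
CPM in each library (points) with mean ± SD (n = 3) for the 11 genes at an adjusted p under 0.05, with WT in blue and S6K1-/- in orange and every y axis from 0. The genes were chosen by their adjusted p, so the gap between the groups follows from the choice, and of the 11 only TNS3 is higher in S6K1-/- hESCs.

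Among the integrins, the abundant subunits differed little and the subunits that passed 0.05 were mostly sparse ones. Of 16 integrins tested, 0 passed an adjusted p of 0.001 with edgeR or with DESeq2, although ITGA4 passed it in edgeR without the filter on low counts (1.55e-05). Of all genes, 3.96% passed 0.001 with edgeR. At 0.05, 4 integrins were lower and 0 higher with edgeR (25%, against 13.8% of all genes). An unadjusted p under 0.05 was found for 7 lower and 0 higher, where the shares of all genes were 14.5% lower and 11.8% higher. DESeq2 called 1 lower and 0 higher at an adjusted p under 0.05, against 4.27% lower and 3.36% higher of all genes it tested. The median log2 fold change of the integrins tested was -0.09.

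ITGA4, the α4 subunit that pairs with β1 or β7 and binds fibronectin and VCAM1, had 64, 67 and 48 counts in WT and 38, 21 and 26 counts in S6K1-/- libraries. Its groups did not overlap, and its log2 fold change of -1.01 (adjusted p = 0.00497) stayed under 0.05 in all 11 alternatives, between -1.26 and -0.81. Of its exonic bases, 26.4% are shared with CERKL on the other strand, which had 51 counts over all libraries beside 264 for ITGA4.

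ITGA1, a collagen-binding subunit, had 9.41, 9.64 and 10.4 CPM in WT and 7.88, 7.23 and 7.86 CPM in S6K1-/- hESCs (log2 fold change -0.36, adjusted p = 0.0111). ITGB4, which pairs with α6 in hemidesmosomes, had 71, 78 and 77 counts in WT and 50, 41 and 51 counts in S6K1-/- libraries, with a log2 fold change of -0.61 (adjusted p = 0.0183). For ITGA3, a laminin receptor subunit, the levels were 36.4, 36.3 and 34.6 CPM in WT and 31.2, 32.7 and 28.6 CPM in S6K1-/- hESCs (log2 fold change -0.21, adjusted p = 0.0257). All 3 had S6K1-/- libraries below WT libraries, and all 3 missed 0.05 with DESeq2's Wald test. Without WT replicate 3, ITGA1 had an adjusted p of 0.0637. PELO on the same strand shares 2.69% of its exonic bases and had 3498 counts over all libraries beside 1237 for ITGA1, and ITGA2-AS1 on the other strand shares 7.47%. ITGB4 missed 0.05 without WT replicate 3 or KO replicate 2 (adjusted p up to 0.0771), and ITGA3 without WT replicates 1 or 2 or KO replicates 1 or 3 (adjusted p up to 0.123).

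The remaining integrins did not pass 0.05. The groups did not overlap for the fibronectin receptor subunit ITGA5 (log2 fold change -0.15, adjusted p = 0.0672), for ITGB8 (-0.36, adjusted p = 0.0648) or for ITGB2 (-0.87, adjusted p = 0.105), which had 19, 14 and 13 counts in WT and 6, 10 and 8 counts in S6K1-/- libraries. ITGB1, the β1 subunit shared by most of these receptors, had 538, 502 and 525 CPM in WT and 548, 514 and 547 CPM in S6K1-/- hESCs, which overlapped. Its log2 fold change of 0.04 had a 95% confidence interval from -0.05 to 0.13, and that of ITGB5, the vitronectin receptor subunit, was -0.02 with an interval from -0.10 to 0.06. ITGA6 was at 0.09, with an interval from -0.00 to 0.18, and overlapped between the groups. ITGAV, ITGA7, ITGAE and ITGA2B lay between -0.09 and -0.06, and ITGA2 and ITGA9 at 0.06 and 0.05.

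Too few counts were found to test 10 integrins. They were the leukocyte subunits ITGAD, ITGAL, ITGAM, ITGAX and ITGB7, with at most 11 counts in a library, and ITGA8, ITGA10, ITGA11, ITGB3 and ITGB6, with at most 12. ITGB6 had 0 counts in every library. ITGAM had 11, 9 and 9 counts in WT and 3, 6 and 1 in S6K1-/- libraries, and ITGB7 had 6, 5 and 7 against 2, 2 and 1, while the other 8 overlapped between the groups. Of the exonic bases of ITGB7, 42.3% are shared with ZNF740 on the other strand, which had 4788 counts over all libraries beside 23 for ITGB7. A list of 5 markers of blood cells, which express these leukocyte subunits, summed to 2.46 to 3.70 CPM in WT and 2.11 to 3.15 CPM in S6K1-/- libraries, mostly CD68 (49, 79 and 66 counts in WT and 71, 54 and 42 in S6K1-/- libraries), with PTPRC and GP9 at or under 3 counts in every library. CD34 of this list had 8, 9 and 7 counts in WT and 2, 2 and 0 in S6K1-/- libraries, and its part in the integrin counts was not tested.

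To compare levels between genes, CPM were divided by the length of each gene's canonical GENCODE 44 transcript in kilobases. On this scale ITGA6 was the most abundant α subunit at 34.2 ± 1.36 in WT and 36.4 ± 1.45 in S6K1-/- hESCs (CPM per kb, SD, n = 3). ITGA7 (11.9), ITGAV (11.5), ITGA5 (8.98) and ITGA3 (7.32) followed in WT hESCs, and ITGA1 (0.915) and ITGA4 (0.365) were far lower. Neighbours in the WT order down to ITGA4 did not overlap, except ITGA7 and ITGAV. The β subunits were almost entirely ITGB1 at 139.7 ± 4.84 and ITGB5 at 67.6 ± 0.562 CPM per kb in WT hESCs, and 144 ± 5.14 and 66.8 ± 1.04 in S6K1-/- hESCs. The next, ITGB8, was at 0.623 in WT hESCs.

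The summed α level was 87.4 ± 2.01 CPM per kb in WT and 85.8 ± 0.722 in S6K1-/- hESCs, and the summed β level 209 ± 5.40 and 211 ± 5.84. Within the α sum, ITGA6 took 38.6%, 38.7% and 40.1% in WT and 44.1%, 41.7% and 41.4% in S6K1-/- libraries, and the groups did not overlap. ITGB1 took 66.9% of the β sum in WT and 67.9% in S6K1-/- hESCs. Dividing by the union of all annotated exons, an alternative chosen after seeing the data, placed ITGB5 above ITGB1, ITGB4 above ITGB8, ITGA5 above ITGAV, and ITGA2 above ITGAE and ITGA2B. The ITGA6 shares of the groups did not overlap with this length either, but both lengths divide the same counts, so this is not a separate check.

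**Figure D3:**
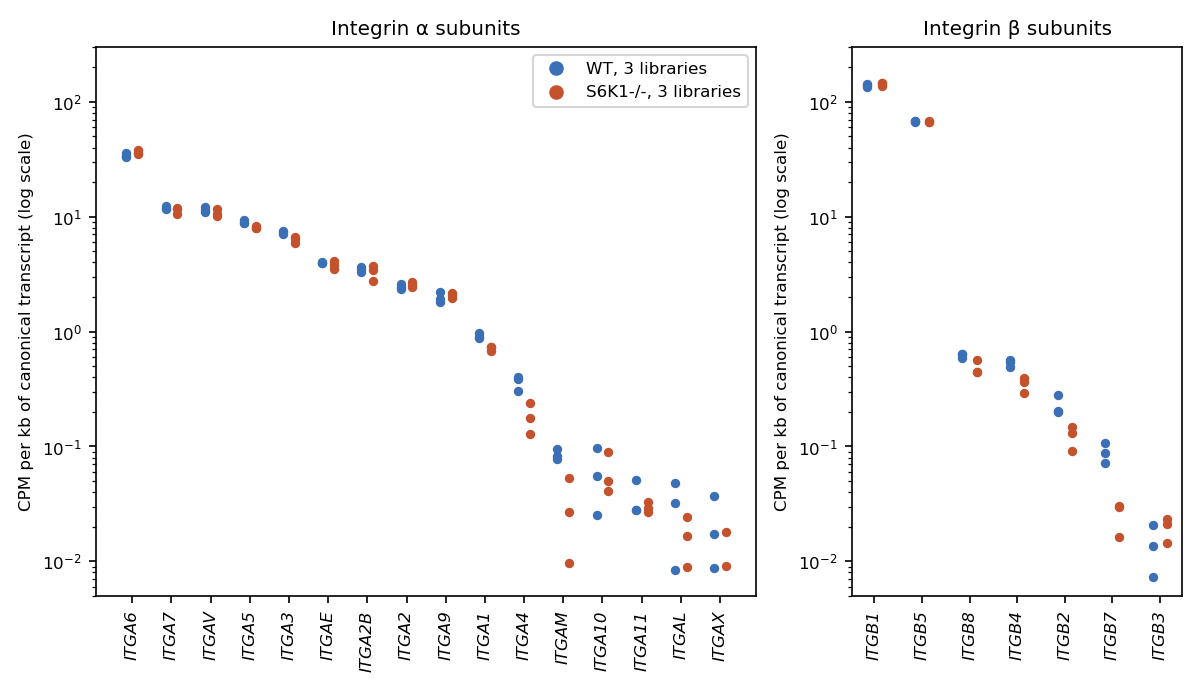
CPM per kb of canonical transcript of the integrin subunits in each library (log y axis), ordered by the WT mean. ITGA6, ITGB1 and ITGB5 stand highest in both groups, ITGA4, ITGA1 and ITGB4 are sparse, and libraries at 0 counts and the genes ITGA8, ITGAD and ITGB6 are not drawn.

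None of the 5 talins and kindlins, which activate integrins from inside the cell, passed an adjusted p of 0.05. With edgeR, 0 had an unadjusted p under 0.05, and with DESeq2 0 had an adjusted p under 0.05. Of all genes, 13.8% passed an adjusted p of 0.05 with edgeR, and 14.5% were lower and 11.8% higher at an unadjusted p under 0.05. DESeq2 called 4.27% lower and 3.36% higher at an adjusted p under 0.05. With only 5 genes, counts of 0 do not set this group apart from these shares. Their log2 fold changes lay between -0.06 for FERMT2 and 0.05 for FERMT3, and the groups overlapped for all 5. TLN1 had 169, 151 and 159 CPM in WT and 164, 162 and 156 CPM in S6K1-/- hESCs, with a 95% confidence interval of its log2 fold change from -0.09 to 0.11. FERMT2, kindlin-2, stood at 41.4 CPM per kb in WT and 39.7 in S6K1-/- hESCs, above TLN1 at 18.6 and 18.7. With the union of exons as length, FERMT2 and TLN1 were both at 16.1 in WT hESCs.

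In the ILK, PINCH and parvin scaffold LIMS2 passed 0.05 beside PARVB. LIMS2, PINCH-2, had 42, 53 and 41 counts in WT and 24, 20 and 27 counts in S6K1-/- libraries, a log2 fold change of -0.87 (adjusted p = 0.0105) that missed 0.05 without KO replicate 2 (0.0528) and with DESeq2's Wald test (0.0919). ILK itself, at 55.2 CPM per kb the most abundant of the 5 in WT hESCs, was at -0.08 with overlapping groups, and 68.1% of its exonic bases are shared with TAF10 on the other strand. LIMS1, PINCH-1, was at 0.03 and PARVA, α-parvin, at 0.02, with adjusted p of 0.712 and 0.856. LIMS1 has near-identical copies, so its counts are uncertain.

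PARVB stood above PARVA in WT hESCs and below it in S6K1-/- hESCs. Per kb of canonical transcript, the WT means were 2.55 for PARVB and 2.26 for PARVA, and the S6K1-/- means 1.82 and 2.29, and the same order held with the union of exons. The ratio of PARVB to PARVA counts was 0.748, 0.677 and 0.692 in WT and 0.464, 0.516 and 0.507 in S6K1-/- libraries. The LIMS2 to LIMS1 ratio was lower in S6K1-/- libraries by 0.91 on the log2 scale.

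Ratios were computed for 9 pairs of paralogs, and the groups did not overlap in 6 of them, 2 of which share TNS3 and 5 of which hold a gene past 0.05. For single genes the share without overlap was 30.7% of all genes, and no such share was computed for other pairs. Each of these 6 had p = 0.1 in a two-sided exact permutation test, the smallest that 3 against 3 libraries can give, and 0.15 after Benjamini-Hochberg adjustment over the 9 pairs. The other 4 of the 6 were TNS3 to TNS2 (log2 difference 0.59), TNS3 to TNS1 (0.40), PTK2B to PTK2 (-0.41) and ACTN4 to ACTN1 (-0.08). CRKL to CRK, TLN2 to TLN1 and FERMT1 to FERMT2 overlapped.

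**Figure D4:**
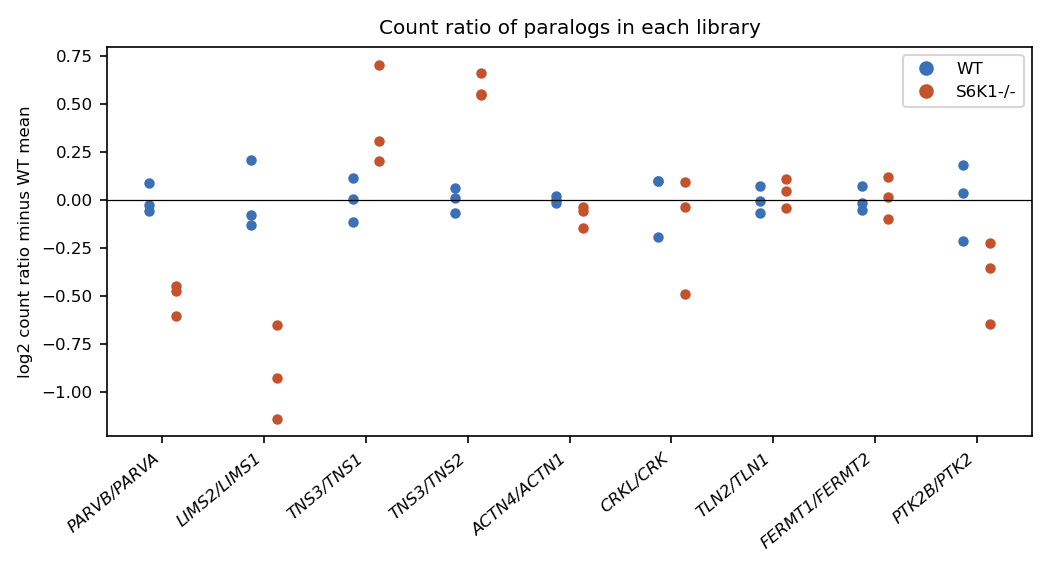
Log2 ratio of the counts of 9 paralog pairs in each library, minus the mean of the WT libraries (y axis), with WT in blue and S6K1-/- in orange. PARVB/PARVA and LIMS2/LIMS1 lie below the WT libraries and TNS3/TNS1 and TNS3/TNS2 above them.

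Beside TNS3, the actin linkers VCL and ACTN4 passed 0.05, both lower. VCL, vinculin, which binds talin and actin under tension, had 755, 698 and 776 CPM in WT and 643, 632 and 636 CPM in S6K1-/- hESCs. The groups did not overlap, and its log2 fold change was -0.22 (adjusted p = 0.00348), past 0.05 in every alternative. AP3M1 on the other strand shares 11.1% of its exonic bases.

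ACTN4, α-actinin-4, crosslinks actin and had 438, 424 and 425 CPM in WT and 393, 392 and 394 CPM in S6K1-/- hESCs (log2 fold change -0.13, adjusted p = 0.0383). Its call at 0.05 was lost in 5 of 6 fits that leave out 1 library, the exception being that without WT replicate 2, and its adjusted p reached 0.172. CAPN12 on the other strand shares 14.2% of its exonic bases. ACTN1, its paralog, was at -0.05 (adjusted p = 0.546).

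FLNA, filamin A, an actin crosslinker that binds β tails, stood highest of the 53 genes at 178 ± 8.70 CPM per kb in WT and 179 ± 4.40 in S6K1-/- hESCs. Its log2 fold change of 0.01 had a 95% confidence interval from -0.08 to 0.11. ZYX, zyxin, a LIM protein of tensed actin fibres, was at -0.14 (adjusted p = 0.0760) and VASP, which promotes actin elongation, at -0.06, both with overlapping groups. Of the other tensins, TNS2 was at -0.27 with S6K1-/- libraries below WT libraries (adjusted p = 0.115), while TNS1 at -0.07 and the sparse TNS4 at -0.63 overlapped between the groups.

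Beside BCAR1, PXN passed 0.05 among the kinases and adaptors. PXN, paxillin, the scaffold on which focal adhesion kinase and CRK meet, had 4869, 4933 and 4521 counts in WT and 4249, 4387 and 3754 counts in S6K1-/- libraries (log2 fold change -0.15, adjusted p = 0.0193), and its groups did not overlap as CPM. Leaving out WT replicate 1 or KO replicates 1 or 3 ended this call, with an adjusted p up to 0.101. PXN-AS1 on the other strand shares 23.7% of the exonic bases of PXN and had 15159 counts over all libraries beside 26713 for PXN. CRKL, an adaptor that binds phosphorylated p130Cas and paxillin, had 150, 144 and 152 CPM in WT and 163, 159 and 160 CPM in S6K1-/- hESCs, which did not overlap, with a log2 fold change of 0.11 and an adjusted p of 0.0712. PTK2, focal adhesion kinase, was the most abundant of the 7 in WT hESCs at 42.1 CPM per kb of canonical transcript. With the union of exons as length it stood at 15.7, below CRKL at 27.9 and PXN at 26.6. Its log2 fold change was 0.03 with an interval from -0.05 to 0.12. SRC was at -0.03, CRK at 0.27 and PTK2B, the paralog of focal adhesion kinase, at -0.37, all 3 overlapping between the groups. CRK had 11.4, 13.4 and 11.6 CPM in WT and 13.5, 12.2 and 18.3 CPM in S6K1-/- hESCs, so that KO replicate 3 stood apart from its other libraries.

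Over the 32 genes tested that did not pass 0.05, the 95% confidence intervals of the log2 fold change ran from -1.58 to 0.53, the lower end being that of the sparse ITGB2. For the 25 of them that averaged 10 CPM or more, the intervals lay between -0.29 and 0.53, and the upper end belongs to CRK.

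Promoter windows from RefSeq, from 250 bases before to 50 after a start site, were found for 38 of the 53 genes, which have 68 windows because some genes have several starts. The letters CATTCC or GGAATG, the core bound by TEAD factors, were in 8 of the 68 windows (11.8%), against 14.0% of all windows, and in those of ACTN1, ITGA10, ITGA5, ITGB1, PXN, TNS1 and VCL. The CArG box, bound by SRF, was in 3 of 68 windows (4.41%), against 1.29% of all windows, those of ACTN1, FLNA and ITGB6. The matches in ACTN1, 1 of each motif, lie at a start 1736 bases from its canonical one, that in PXN at a start 15567 bases from its canonical one, and those in TNS1 at starts 58925 and 82759 bases from its canonical one. Stretches around matches in 6 genes are shown to set genes that passed 0.05 (VCL and PXN) beside abundant genes that did not (ITGA5, ITGB1, FLNA and ACTN1), with the matched letters in capitals.
VCL (chr10:73997920-73997975, plus strand): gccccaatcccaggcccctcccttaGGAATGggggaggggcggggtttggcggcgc
PXN (chr12:120250200-120250255, minus strand): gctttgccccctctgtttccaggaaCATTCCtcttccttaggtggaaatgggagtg
ITGA5 (chr12:54419318-54419373, minus strand): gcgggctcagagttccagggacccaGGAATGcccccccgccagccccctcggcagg
ITGB1 (chr10:32958382-32958437, minus strand): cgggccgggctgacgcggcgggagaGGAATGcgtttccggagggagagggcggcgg
FLNA (chrX:154374694-154374753, minus strand): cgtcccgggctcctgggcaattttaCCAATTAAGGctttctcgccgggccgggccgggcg
ACTN1 (chr14:68977703-68977762, minus strand): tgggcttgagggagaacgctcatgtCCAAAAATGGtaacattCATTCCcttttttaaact
CATTCC or GGAATG occurred both in genes that passed 0.05 and in genes that did not, whereas of the 3 genes with a CArG box ACTN1 and FLNA did not pass it and ITGB6 was not tested.

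Matrix and other ligands of integrins, collagens left out, were read from a list of the pathway's other genes. Of 30 listed, 26 were tested, and 5 were lower and 1 higher at an adjusted p under 0.001 (23.1%, beside 3.96% of all genes). At 0.05, 13 were lower and 1 higher (53.8%, beside 13.8% of all genes), and the median log2 fold change was -0.31. CCN2 (-2.13, adjusted p = 4.52e-12), CCN1 (-1.13, adjusted p = 4.42e-10) and TNC (-1.61, adjusted p = 2.24e-06), matricellular proteins that bind integrins, and EDIL3 (-0.34, adjusted p = 2.94e-05), which binds αV integrins, had the smallest adjusted p among those lower. LAMC3, a laminin γ chain, was the 1 higher (0.29, adjusted p = 5.67e-04). No ligand was higher at 0.001 in 5 of 6 fits that leave out 1 library, the exception being that without WT replicate 1.

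Of 62 other focal adhesion components, 58 were tested, and 8 were lower (13.8%, beside 2.54% of all genes) and 0 higher at an adjusted p under 0.001 with edgeR. At an unadjusted p under 0.05, 19 were lower and 6 higher, where the shares of all genes were 14.5% lower and 11.8% higher. DESeq2 called 8 lower and 1 higher at an adjusted p under 0.001, against 2.01% lower and 1.42% higher of all genes. At an adjusted p under 0.05 with edgeR, 11 were lower and 2 higher, where the shares of all genes were 8.31% lower and 5.47% higher. The median log2 fold change was -0.02. Those with the smallest adjusted p were SORBS2 (-1.08, adjusted p = 6.91e-09), a vinculin-binding adaptor, ACTN3 (-0.76, adjusted p = 1.75e-06), the fast-muscle α-actinin, FLNC (-0.71, adjusted p = 9.39e-06), the muscle filamin, and CAV1 (-0.59, adjusted p = 1.91e-05), the caveolar coat protein.

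Markers of mesenchyme were lower alongside these genes. The 9 mesenchyme markers summed to 69.2 to 75.3 CPM in WT and 28.9 to 32.2 CPM in S6K1-/- libraries, of which TAGLN, also an actin-binding protein, was 76.7% and 76.0%. Of the 4 tested, PDGFRB, TWIST2 and TAGLN were lower at 0.001 and ACTA2 at 0.05 (log2 fold change -1.49, adjusted p = 0.00526), while TWIST1, DCN, LUM, PRRX1 and COL3A1 were at or under 3 counts in every library. Endoderm markers summed to 8.27 to 10.8 CPM in WT and 4.36 to 5.45 CPM in S6K1-/- libraries, with SOX17 and GATA6 at or under 3 counts. All 4 tested were below 0, and FOXA2 (log2 fold change -0.88, adjusted p = 0.00108) and CXCR4 (-1.26, adjusted p = 0.0235) were lower at 0.05. Neuroectoderm markers summed to 471 to 491 CPM in WT and 453 to 466 CPM in S6K1-/- libraries, of which NES was 91.5% and 92.1%. Within this list PAX6 was higher (log2 fold change 0.76, adjusted p = 2.69e-04), OTX2 was lower (-0.63, adjusted p = 6.03e-05) and SOX1 was higher at 0.05 (1.29, adjusted p = 0.0174). Endothelial markers summed to 109 to 122 CPM in WT and 109 to 111 CPM in S6K1-/- libraries, mostly KDR (88.7% and 97.5%), with PECAM1 at or under 3 counts. TEK of this list fell from 11.2 to 1.24 CPM (log2 fold change -3.17, adjusted p = 9.90e-11). The part of all these markers in the values of the adhesion genes was not tested, and in bulk RNA fewer cells of a type and less RNA per cell cannot be told apart.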

How the data were processed

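RNA of undifferentiated H7 hESCs was sequenced from 3 WT and 3 S6K1-/- libraries prepared with the TruSeq Stranded mRNA kit. Per the labels' processing notes and the methods, the authors trimmed reads with Trim Galore 0.6.5, aligned them to GRCh38 with Bowtie2 2.4.5, which does not align across splice junctions, and deposited raw counts per gene symbol from featureCounts. The annotation release and strand setting are not given in the sources used here, so overlapping and antisense genes and near-identical copies are uncertain. The authors' table of their own comparison (log2 fold changes, standard errors, statistics and p-values from DESeq2 1.37.4) was not used.

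Genes were filtered with filterByExpr, scaled by TMM and tested with edgeR's quasi-likelihood F test (edgeR 4.0.16, R 4.3.3) on genotype alone, with Benjamini-Hochberg adjustment over 19521 genes. The threshold was the study's 0.001, with 0.05 beside it. CPM use TMM-scaled library sizes. Standard errors are the log2 fold change over the square root of F. Replicates of a group differed beyond counting noise (chi-square over its degrees of freedom between 2.24 and 4.53). The steps were tested on simulated data.

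The genes, lists and tests were chosen with earlier results of these data known. By rule, genes past 0.001 are named with every library value, genes past 0.05 with fold change and adjusted p, the rest by range, the most abundant of each role by level, and up to 4 genes per direction of the 2 further lists. Other members with groups that do not overlap, or near the threshold, were named after their values were seen. The alternatives were size factors or the Wald test of DESeq2 1.42.0, no filter on low counts, a minimum of 10 counts per library, a replicate block, leaving out each library, and a threshold of 0.05. Symbols were matched to GENCODE 44 and RefSeq promoter windows (GRCh38.p14). Some items are not reported here.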

Additional observations from a re-analysis of the deposited data

How the results depend on the processing

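The alternatives were run for RPS6KB1 and the 11 integrin and focal adhesion genes past 0.05, and none of these 12 changed sign. RPS6KB1 and BCAR1 stayed under 0.001, and VCL and ITGA4 under 0.05, in all 11 alternatives. VCL also passed 0.001 with the Wald test of DESeq2, when low counts were not filtered and without WT replicate 2, and ITGA4 without the filter. Over all genes, 496 were lower and 278 higher. Without the filter on low counts these were 982 and 591, at a threshold of 0.05 they were 1622 and 1067, and with 1 library left out from 313 to 445 and from 175 to 235. Among the integrin and focal adhesion genes, 2 were lower at 0.001. Without the filter this was 4, with VCL and ITGA4 added, with the replicate block 1, at 0.05 10, and with 1 library left out from 1 to 3. The 1 higher gene was 0 to 1 with 1 library left out. At 0.05 the 10 lower genes were 6 with DESeq2's Wald test and from 7 to 9 with 1 library left out, and the 1 higher gene was 2 without the filter. PARVB had an adjusted p of 0.00103 with DESeq2's Wald test, against the threshold of 0.001. Of the ligands, 5 were lower, which was 9 without the filter, 13 at 0.05 and from 4 to 6 with 1 library left out, and 1 was higher, which was 0 with the replicate block and from 0 to 1 with 1 library left out. Of the other focal adhesion components, 8 were lower, from 6 to 8 with 1 library left out, and 0 higher, which was 1 with DESeq2's size factors, 1 with DESeq2's Wald test, 2 without the filter and 2 at 0.05. With the union of exons as length, chosen after seeing the data, the ITGA6 share of the α sum was 51.4% in WT and 54.7% in S6K1-/- hESCs, beside 39.2% and 42.4%, and the ITGB1 share of the β sum 43.2% and 44.3%, beside 66.9% and 67.9%. Where fewer libraries or another set of genes tested do not account for a change, the cause was not tested.

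Whether WT and S6K1-/- libraries of the same number were paired is not stated, and with 3 libraries per group the correlations below cannot decide it. Deviations from the group means correlated across genes by 0.0180, 0.00174 and 0.0316 for libraries of the same number, and WT replicate 1 correlated more with KO replicate 2 (0.0343). With the replicate block, PARVB had a log2 fold change of -0.49 and an adjusted p of 0.00111. Depth limits ITGB2, TNS4 and the 10 integrins not tested, which had few counts.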
